A study of Mus musculus with 4 samples.

Results

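The genes of the interleukin-1 (IL-1) system were followed through the immune cells of mouse skin wounds. The set held 9 of the 31053 genes in the deposited tables, taken by symbol: the ligands Il1a, Il1b and Il18, the antagonist Il1rn, the receptor chains Il1r1, Il1r2 and Il1rap, and the caspases Casp1 and Casp4. Live leukocytes (CD45+, negative for propidium iodide) had been sorted from 3 mm excisional wounds on the back skin of 8-week-old male mice, and their RNA was counted cell by cell in droplets. The 4 libraries were Angptl4+/+ (wild-type) and Angptl4-/- wounds, each taken at 1 and at 5 days post-wounding (dpw), with 1 library per genotype and day. The labels give the strain of all 4 as C57BL6/J. Angptl4-/- mice lack the secreted protein angiopoietin-like 4 in the whole body, so the genotype of the leukocytes and that of the surrounding skin cannot be told apart. How many mice contributed to a library is not given in the sources used here. Angptl4 itself had 47 unique molecular identifiers (UMIs, each marking 1 captured RNA molecule) in the Angptl4+/+ library at 1 dpw, 78 in the one at 5 dpw, and 0 in both Angptl4-/- libraries.

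IL-1 alpha and IL-1 beta are alarm cytokines that signal through the type 1 receptor (Il1r1) paired with an accessory chain (Il1rap). The receptor antagonist (Il1rn) occupies the type 1 receptor without signaling, and the type 2 receptor (Il1r2) is a decoy that captures the ligand and lacks a signaling tail. Caspase-1, encoded by Casp1, cuts the precursors of IL-1 beta and IL-18 into their active forms inside the inflammasome, and the product of mouse Casp4, also called caspase-11, senses bacterial lipopolysaccharide in the cytosol. In wounded skin, neutrophils and macrophages are known sources of IL-1 beta, while keratinocytes, fibroblasts and endothelial cells, which the CD45+ sort leaves out, carry the type 1 receptor.

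Several of these genes are neighbors in the genome (GRCm38, GENCODE M21). Il1b (chr2:129364570-129371139, minus strand, up to 7 exons) and Il1a (chr2:129299610-129309972, minus strand, up to 7 exons) lie 54597 bp apart on chromosome 2, which also carries Il1rn (chr2:24336853-24351494, plus strand). Il1r2 (chr1:40074079-40125231) and Il1r1 (chr1:40225080-40317257) lie 99848 bp apart on the plus strand of chromosome 1. Casp1 (chr9:5298517-5307265) and Casp4 (chr9:5308828-5336783) lie 1562 bp apart on the plus strand of chromosome 9, where Il18 (chr9:50554827-50581840, plus strand) is found as well, and Il1rap is on chromosome 16 (chr16:26581704-26730117, plus strand). Il1b overlaps the antisense gene Il1bos, which the tables count as a gene of its own.

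All 9 genes matched the RefSeq promoter windows of GRCm38.p6, which run from 250 bases before a transcript start to 50 after it, with 13 windows in all. The windows of Il1b, Il1a, Il1rn and Il1r2 are printed 5′ to 3′ because the levels of these 4 genes ran apart among neutrophils (described further on). Capitals mark matches, on either strand, to kappaB (GGGA, any 2 bases, TTCC), C/EBP (TTGCNNAA), PU.1 (GAGGAA), AP-1 (TGANTCA), an interferon-stimulated response element (GAAA, any 2 bases, GAAA) and a TATA box (TATAAA); no matches overlapped. The first 2 windows lie on the minus strand at chr2:129371090-129371389 and chr2:129309923-129310222, and the other two on the plus strand at chr2:24336610-24336909 and chr1:40085843-40086142.
Il1b: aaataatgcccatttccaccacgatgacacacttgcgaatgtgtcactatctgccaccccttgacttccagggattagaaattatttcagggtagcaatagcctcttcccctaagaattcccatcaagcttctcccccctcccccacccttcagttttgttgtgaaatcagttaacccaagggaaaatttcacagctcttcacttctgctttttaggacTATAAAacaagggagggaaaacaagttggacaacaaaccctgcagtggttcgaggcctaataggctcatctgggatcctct
Il1a: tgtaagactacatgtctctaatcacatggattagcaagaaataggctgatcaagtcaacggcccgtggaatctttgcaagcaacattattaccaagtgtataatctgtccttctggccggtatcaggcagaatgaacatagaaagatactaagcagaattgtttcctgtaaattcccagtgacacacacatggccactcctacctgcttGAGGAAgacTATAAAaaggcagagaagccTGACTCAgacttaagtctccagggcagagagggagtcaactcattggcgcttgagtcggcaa
Il1rn: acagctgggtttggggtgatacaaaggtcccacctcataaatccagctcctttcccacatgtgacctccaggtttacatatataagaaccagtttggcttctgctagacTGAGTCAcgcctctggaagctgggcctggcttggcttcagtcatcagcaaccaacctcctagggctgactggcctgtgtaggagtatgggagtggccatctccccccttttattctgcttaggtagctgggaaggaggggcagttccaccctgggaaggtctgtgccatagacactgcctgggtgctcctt
Il1r2: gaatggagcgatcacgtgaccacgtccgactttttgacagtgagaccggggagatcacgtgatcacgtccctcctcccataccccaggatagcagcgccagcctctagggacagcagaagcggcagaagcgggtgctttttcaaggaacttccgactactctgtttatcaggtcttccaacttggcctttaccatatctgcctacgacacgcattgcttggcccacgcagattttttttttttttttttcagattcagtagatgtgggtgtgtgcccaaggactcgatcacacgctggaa
The Il1b and Il1a windows held the TATA letters, starting 31 bases before the transcript start in Il1b and 32 in Il1a, while the window of the third ligand, Il18, and 1 of the 3 windows of Il1rn, not the one printed, held them on the reverse strand, and 13.6% of all 32851 windows held them on either strand. The AP-1 letters stood 12 bases before the start of Il1a and 141 before that of Il1rn, against 7.81% of all windows. The PU.1 letters, present in 28.3% of all windows, were found in Il1a and, on the reverse strand, in the window of Casp1, which is not printed. The kappaB letters, in 1.47% of all windows, were in none of the 13 windows. The Il1r2 window had none of the 6 motifs. A match is only a description of these letters.

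The deposited UMIs totaled 26981596 to 32962595 per library, and 19827 of 20069 barcodes passed the filters, 4738 to 5346 per library; 50 barcode sequences occurred in more than 1 library. Cells were clustered with the 9 genes and the wider pathway left out of the variable genes. Marker lists named 12 clusters as 6 classes: neutrophil-like (2709 to 3890 cells per library), macrophage-like (644 to 1544), monocyte-like (126 to 152), dendritic cell-like (86 to 309), NK cell/T cell-like (36 to 227) and B cell-like (2 to 27). All 14 neutrophil markers were detected in at least 10% of neutrophil-like cells, which the same list had named. In monocyte-like cells 13 of them were detected at that share, and in macrophage-like cells 11. Levels are given as CPM, the UMIs that a gene had in a class for every 1000000 UMIs which that class held in the library. Since 3′ tags count molecules whatever their length, levels were compared between genes without dividing by length. With 1 library per condition there was no replicate and no test, and all intervals are exact 95% intervals that cover counting error only. A gene was compared where both libraries of a comparison together held at least 50 UMIs in a class, and called when its CPM differed 2-fold or more.

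Il1b was by far the most abundant of the 9 genes and the tenth of all genes by UMIs, with 831751 UMIs over all cells, followed by Il1rn with 99904 and Il1r2 with 70508. At the other end, Il1r1 had 141 UMIs in 19827 cells. Nearly all neutrophil-like cells carried Il1b RNA. After each cell was thinned to 1000 UMIs, which left out 86 to 157 shallower cells per library, 95.7 to 97.2% of neutrophil-like cells had an Il1b UMI, and 97.3 to 99.2% before thinning. In NK cell/T cell-like cells, which are not known as a source of this cytokine, the thinned share was 8.37 to 25.0% (unthinned, 33.9 to 47.2%). Median UMIs per cell were 3218 to 4682 in neutrophil-like and 6274 to 7147 in NK cell/T cell-like cells.

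Among the ligands, Il1b in neutrophil-like cells of Angptl4+/+ wounds stood at 11216 CPM (11169.5 to 11263) on day 1 and at 15512 CPM (15429.6 to 15596) on day 5. In the Angptl4-/- libraries it was 10229 CPM (10182 to 10275) and later 15736 CPM (15666 to 15806). Both libraries of 5 dpw lay above both of 1 dpw, whatever the genotype. Macrophage-like cells had less Il1b, at 3171 CPM at 1 dpw and 1172 CPM at 5 dpw in Angptl4+/+ wounds and at 2744 and 1361 CPM in Angptl4-/- wounds, and here the libraries of 1 dpw were the high ones. Neutrophil-like cells held 85.7 to 92.1% of the Il1b UMIs of a library. Il1a, the ligand that is active without caspase-1, was far scarcer, at 194 CPM at 1 dpw and 166 CPM at 5 dpw in Angptl4+/+ wounds and at 175 and 126 CPM in Angptl4-/- wounds in neutrophil-like cells. It followed the same classes: 84.7 to 93.3% of Il1a UMIs came from neutrophil-like cells, and in macrophage-like cells it stood at 72.1 CPM at 1 dpw and 7.87 CPM at 5 dpw in Angptl4+/+ wounds and at 49.3 and 12 CPM in Angptl4-/- wounds. Il18 had no such preference for neutrophils. Its levels were 34.2 to 52.9 CPM in neutrophil-like, 37.3 to 75.0 CPM in macrophage-like and 41.5 to 52.3 CPM in monocyte-like cells, ranges that overlapped in CPM. Its mean UMIs per cell were 0.12 to 0.22 in neutrophil-like cells, below the 0.32 to 0.61 in macrophage-like and 0.38 to 0.75 in monocyte-like cells.

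**Figure D1:**
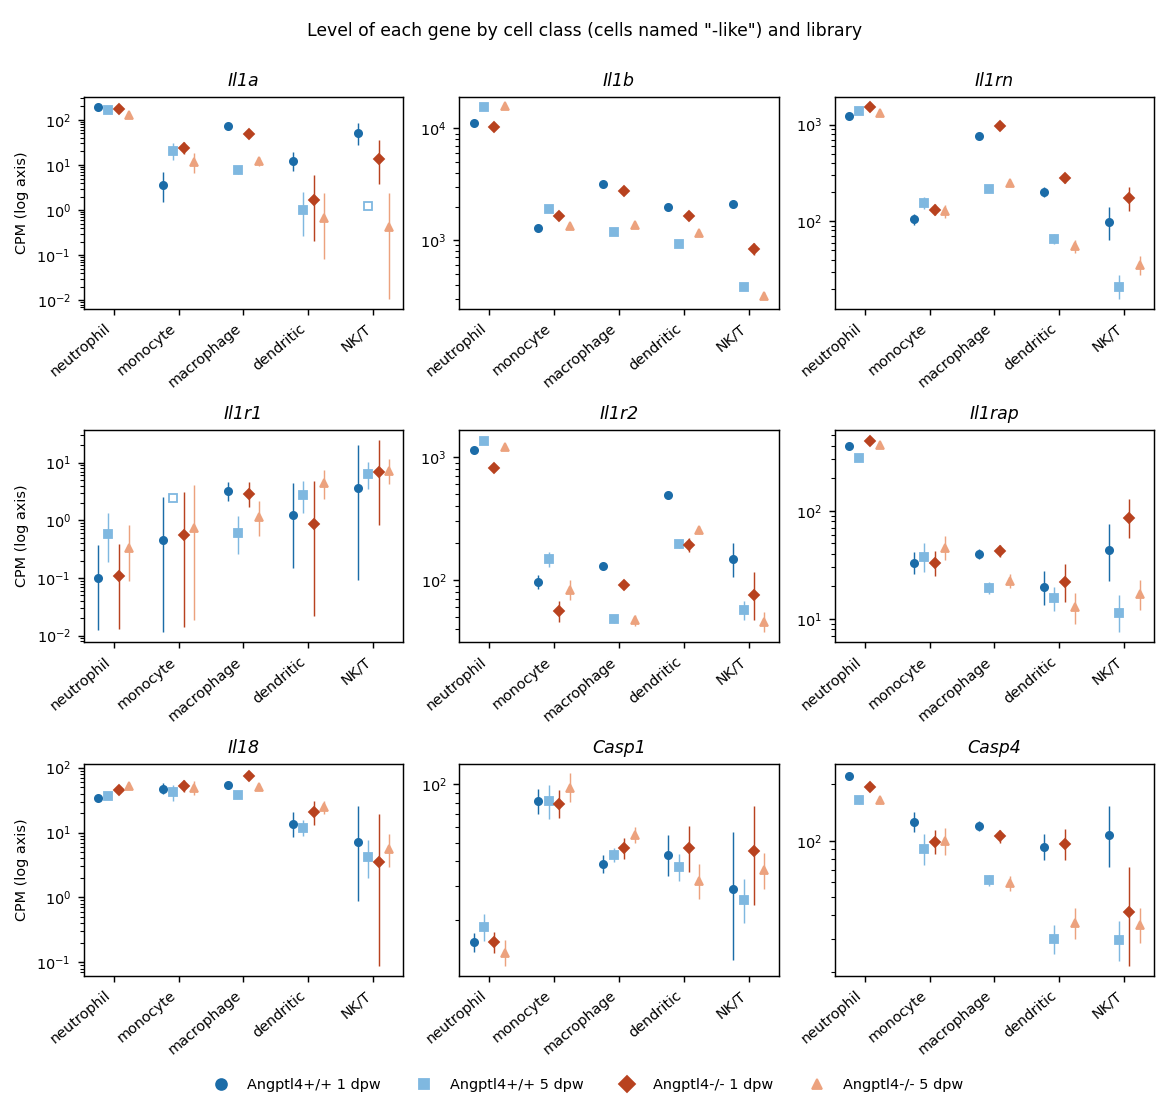
Level of each gene (CPM, log axis, own scale per gene) in 5 cell classes, 1 point per library with its exact Poisson 95% interval; open points mark libraries at 0 UMIs, drawn at the floor of 3 UMIs, and B cell-like cells (2 to 27 per library) are not drawn. Il1b, Il1rn, Il1r2 and Il1rap are highest in neutrophil-like cells, Casp1 is lowest there, and Il1r1 is near 0 in them.

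The antagonist Il1rn was found in neutrophils and, at a lower level, in macrophages. Neutrophil-like cells held 76.4 to 87.3% of the Il1rn UMIs of a library and macrophage-like cells 10.4 to 21.7%. In neutrophil-like cells it stood at 1233 CPM at 1 dpw and 1369.7 CPM at 5 dpw in Angptl4+/+ wounds and at 1528 and 1322 CPM in Angptl4-/- wounds, a narrow range in CPM. As mean UMIs per cell it was lower at 5 dpw, going from 6.24 to 4.38 in Angptl4+/+ wounds and from 7.57 to 4.63 in Angptl4-/- wounds. In macrophage-like cells it stood at 769.9 CPM at 1 dpw and 216 CPM at 5 dpw in Angptl4+/+ wounds and at 971 and 249 CPM in Angptl4-/- wounds, with both libraries of 1 dpw above both of 5 dpw. Summed over the class, macrophage-like cells therefore held more antagonist RNA per ligand RNA than neutrophil-like cells. The UMIs of Il1rn per UMI of Il1a and Il1b together were 0.237, 0.183, 0.348 and 0.181 in macrophage-like cells (Angptl4+/+ at 1 and 5 dpw, then Angptl4-/- at 1 and 5 dpw), against 0.108, 0.0874, 0.147 and 0.0834 in neutrophil-like cells. In all 4 libraries the macrophage value was the higher, and in both classes the highest value was that of Angptl4-/- wounds at 1 dpw.

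The receptors were split to an extreme. Il1r2, the decoy, stood in neutrophil-like cells at 1145 CPM at 1 dpw and 1361 CPM at 5 dpw in Angptl4+/+ wounds and at 819.7 and 1214 CPM in Angptl4-/- wounds. The signaling receptor Il1r1 had 2 and 5 UMIs on days 1 and 5 in the neutrophil-like cells of Angptl4+/+ wounds, and those of Angptl4-/- wounds had 2 and 4. In the same order, Il1r2 had 22549, 11806, 15022 and 14932 UMIs. Il1r1 UMIs were sparse in every class. At 1 dpw, 29 of the 35 Il1r1 UMIs of the Angptl4+/+ library and 17 of the 23 of the Angptl4-/- library fell in macrophage-like cells. At 5 dpw the largest part, 15 of 39 and 17 of 44, fell in NK cell/T cell-like cells, at 6.31 CPM and 7.19 CPM. The finer clustering put 13 of these 15 and 16 of these 17 UMIs in the cluster led by Cxcr6, Cd3g and Tcrg-C1, and the remainder in the one led by Gzma. Il1rap, the chain shared by receptors of this family, was again a gene of neutrophil-like cells, at 401 CPM at 1 dpw and 312 CPM at 5 dpw in Angptl4+/+ wounds and at 447 and 407 CPM in Angptl4-/- wounds, and 87.4 to 95.8% of its UMIs came from them.

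In CPM, the 2 caspases had opposite distributions. Casp1 was lowest in neutrophil-like cells, at 15.3 CPM at 1 dpw and 18.3 CPM at 5 dpw in Angptl4+/+ wounds and at 15.3 and 13.6 CPM in Angptl4-/- wounds, and highest in monocyte-like cells, at 81.7 CPM at 1 dpw and 81.4 CPM at 5 dpw in Angptl4+/+ wounds and at 79.0 and 96.0 CPM in Angptl4-/- wounds. The ranges of these classes over the libraries did not overlap, and macrophage-like cells lay between them at 38.9 to 54.8 CPM. Casp4 was instead highest in neutrophil-like cells, at 223 CPM at 1 dpw and 165 CPM at 5 dpw in Angptl4+/+ wounds and at 194 and 165 CPM in Angptl4-/- wounds, against 90.4 to 126 CPM in monocyte-like and 59.4 to 119 CPM in macrophage-like cells. Among the 5 classes other than B cell-like cells, the one with the highest Il1b CPM thus had the lowest Casp1 and the highest Casp4 CPM in each library. As mean UMIs per cell, Casp4 was instead higher in monocyte-like than in neutrophil-like cells in each library. The means were 1.86, 0.82, 1.41 and 1.05 against 1.13, 0.53, 0.96 and 0.58 (Angptl4+/+ at 1 and 5 dpw, then Angptl4-/- at 1 and 5 dpw). Monocyte-like cells were also deeper, with medians of 9397 to 14668.5 UMIs. The part of depth was not tested.

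Neutrophil-like cells were not uniform in these genes. They fell into 6 clusters, led by Csf3 and Inhba (cluster 4), by Egr3, Csf1 and Tnf (cluster 1), by Rab44 and Dgat1 (cluster 0), by stefin A genes (cluster 10), by Ifit1 and Ifit3b, which interferon induces (cluster 5), and by Ly6g, Ngp and Nlrp12 (cluster 2), of which Ngp encodes a granule protein of maturing neutrophils. Il1a was itself among the 10 leading genes of cluster 4, so that value is a description of the cluster. The antagonist Il1rn stood at 3091 to 3971 CPM in cluster 4, 1290.4 to 2433 CPM in cluster 1 and 297 to 359 CPM in cluster 2 over the 4 libraries. These ranges did not overlap, and cluster 4 was the highest and cluster 2 the lowest in every library. Il1a had the same order at its ends, with 322 to 494 CPM in cluster 4 and 5.14 to 41.0 CPM in cluster 2. The decoy Il1r2 ran the other way, with 332 to 599 CPM in cluster 4 and 1106 to 1656 CPM in cluster 2. Cluster 4 had the lowest Il1r2 of the 6 clusters in each library, while at 5 dpw cluster 5 was higher than cluster 2. These clusters are those of the integrated libraries. Without integration, most clusters of neutrophils were split largely by day. The one led by Csf3, with Il1a among its leading genes, went unnamed. It held 1044 and 55 cells on days 1 and 5 in Angptl4+/+ wounds, and 920 and 56 in Angptl4-/- wounds. Whether these orders hold without integration was not tested.

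**Figure D2:**
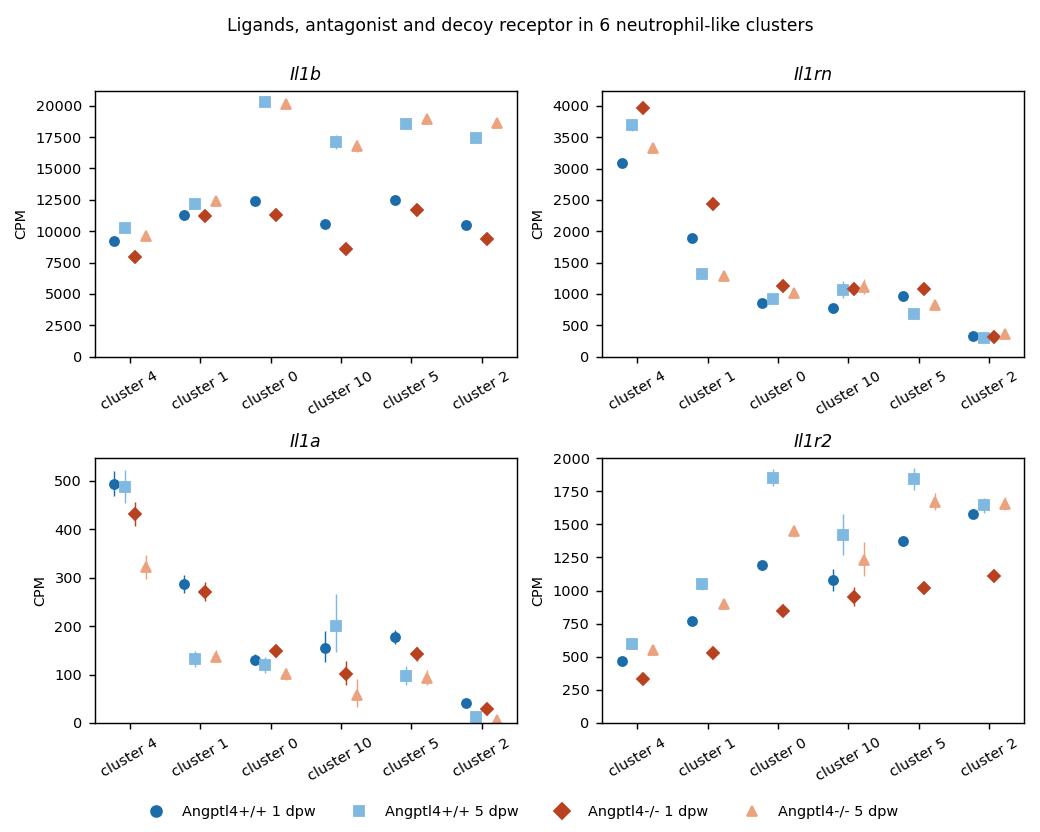
Levels (CPM, axes from 0) of Il1b, Il1rn, Il1a and Il1r2 in the 6 neutrophil-like clusters, 1 point per library with its exact Poisson 95% interval. From cluster 4 to cluster 2, Il1rn and Il1a go from their highest to their lowest and Il1r2 is lowest in cluster 4, while Il1b is 7976 to 10254 CPM in cluster 4 and 9365 to 18602 CPM in cluster 2.

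Il1b varied far less between these clusters than its antagonist did. At 1 dpw it ranged from 9209.8 CPM (cluster 4) to 12498 CPM (cluster 5) in Angptl4+/+ wounds, and at 5 dpw from 10254 CPM (cluster 4) to 20319 CPM (cluster 0). The ratio of antagonist to ligand RNA thus differed between clusters: per 100 Il1b UMIs there were 33.6 to 49.8 Il1rn UMIs in cluster 4 and 1.70 to 3.37 in cluster 2. The macrophage-like clusters had 23.3 to 41.6 (led by Mmp12 and Arg1) and 10.7 to 26.5 (led by Ms4a7 and C1qa). The order of the class sums thus did not hold for every cluster. The interferon-led cluster 5 had the highest Casp1, Il18 and Casp4 of the neutrophil-like clusters, at 33.4 to 42.6, 74.7 to 121 and 222 to 351 CPM, against 6.97 to 10.9, 35.8 to 72.6 and 154 to 184 CPM in cluster 0. For Casp4, cluster 4 came close, at 170.2 to 260.5 CPM. Among the macrophage-like clusters, the one led by Mmp12 and Arg1 had more Il1rn (271 to 1253 CPM) than the one led by Ms4a7 and C1qa (128 to 643 CPM) in each library, while Il18 was higher in the latter (59.9 to 119.7 against 19.6 to 36.4 CPM).

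The same relations were seen cell by cell at equal depth over all neutrophil-like cells together. No share was taken within a cluster, so the differences between clusters enter these values. Of thinned neutrophil-like cells with an Il1a UMI, 70.4% (66.1 to 74.4) also had an Il1rn UMI in Angptl4+/+ wounds at 1 dpw, against 48.1% (46.4 to 49.8) of the cells without Il1a. At 5 dpw these shares were 73.1% (66.6 to 79.0) and 41.9% (39.9 to 43.9). In Angptl4-/- wounds they were 81.1% (76.8 to 84.8) and 53.4% (51.7 to 55.1) at 1 dpw and 70.2% (63.5 to 76.3) and 46.4% (44.7 to 48.2) at 5 dpw. Cells with the ligand Il1a therefore held its antagonist more often in all 4 libraries. The decoy was found less often in cells with Il1rn. An Il1r2 UMI was found in 47.2% (45.0 to 49.4) of cells with Il1rn and 62.3% (60.0 to 64.5) of those without in Angptl4+/+ wounds at 1 dpw, and in 49.6% (46.6 to 52.5) and 64.7% (62.2 to 67.2) at 5 dpw. The Angptl4-/- libraries gave 39.1% (37.0 to 41.3) and 54.7% (52.2 to 57.2) at 1 dpw and 50.6% (48.1 to 53.0) and 60.0% (57.7 to 62.3) at 5 dpw, so that the intervals were apart in each library. The cells of 1 library share their source, so these shares describe each library and are not replicates.

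**Figure D3:**
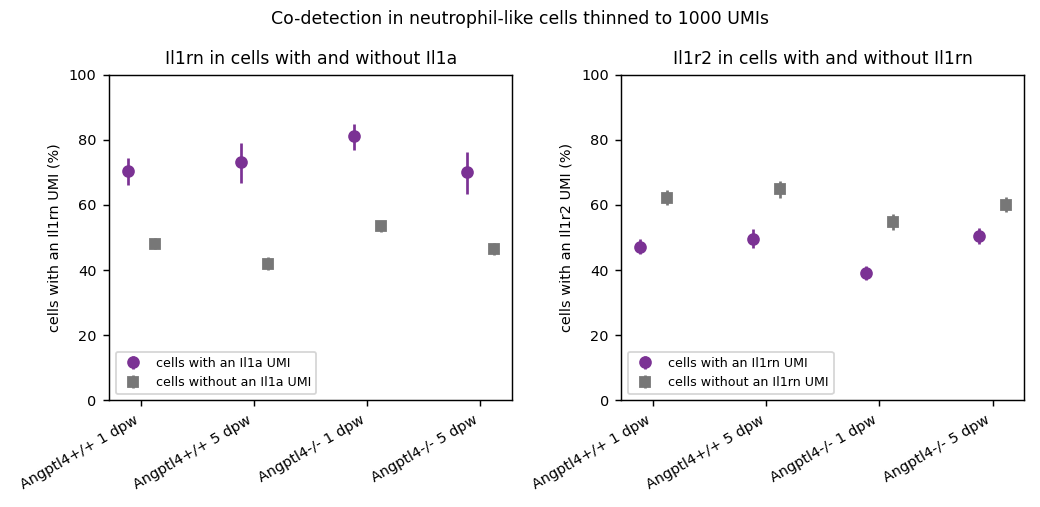
Share of neutrophil-like cells (%, axis from 0 to 100, each cell thinned to 1000 UMIs) with an Il1rn UMI among cells with and without Il1a (left) and with an Il1r2 UMI among cells with and without Il1rn (right), per library, with exact Clopper-Pearson 95% intervals. Il1rn is found more often beside Il1a and Il1r2 less often beside Il1rn in all 4 libraries.

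The comparison of genotypes on each day asked whether the loss of Angptl4 went with a change in the IL-1 system. In neutrophil-like cells 0 of the 8 genes compared differed 2-fold between Angptl4-/- and Angptl4+/+ wounds at 1 dpw, where 1.8% of all genes compared did, and 0 of 8 at 5 dpw, where 1.87% did. In macrophage-like cells the counts in CPM were likewise 0 of 8 on each day, with 1.34% of all genes compared called at 1 dpw and 1.81% at 5 dpw. Per cell, a scale added after seeing the data, these log2 ratios ran from -0.73 (Il1a) to 0.31 (Il18) at 1 dpw. At 5 dpw they ran from 0.46 (Casp4) to 1.11 (Il1a), so each gene was higher in Angptl4-/- wounds and Il1a passed 2-fold. Macrophage-like cells were also deeper in that library, with a median of 11590.5 against 8350 UMIs. The part of depth was not tested. The ninth gene, Il1r1, had too few UMIs to be compared in any class. The median log2 ratio of the 8 genes in neutrophil-like cells was -0.07 at 1 dpw and -0.03 at 5 dpw, beside -0.10 and -0.08 over all genes compared.

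Below the 2-fold line, some ratios lay beyond counting error. The decoy Il1r2 was lower in the neutrophil-like cells of the Angptl4-/- library at 1 dpw, with a log2 ratio of -0.48 (-0.51 to -0.45), and it was lower there in each of the 6 clusters (-0.54 to -0.18), beyond counting error in 6. At 5 dpw the log2 ratio was -0.17 (-0.20 to -0.13), and 3 clusters were lower beyond counting error. Il1rn was higher in the same Angptl4-/- cells at 1 dpw, at 0.31 (0.28 to 0.33), and in 5 of 6 clusters, each beyond counting error. At 5 dpw Il1rn was at -0.05 (-0.09 to -0.02) in the class sum, but its direction was not uniform. It was higher in 4 of 6 clusters, beyond counting error in 3, and lower beyond it in 1, and per cell it gave 0.08. Il1rap was higher on both days, with log2 ratios of 0.15 (0.11 to 0.20) and 0.39 (0.32 to 0.45), and the clusters ran from 0.04 to 0.22 at 1 dpw and from 0.21 to 0.72 at 5 dpw. Il1b itself differed little, at -0.13 (-0.14 to -0.12) and 0.02 (0.01 to 0.03). How far 2 libraries of 1 genotype would differ was not measured, so genotype and library cannot be told apart.

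Summed over a class, Il18 was higher in the Angptl4-/- library wherever its UMIs allowed a comparison. Of the neutrophil-like clusters compared, 5 of 6 were higher at 1 dpw (-0.13 to 0.99), 3 of them beyond counting error. At 5 dpw 5 of 5 were higher (0.02 to 0.86), 4 of them beyond it. Both macrophage-like clusters were higher on each day, beyond counting error in 1 at 1 dpw and in 2 at 5 dpw. Its level in neutrophil-like cells was 34.2 CPM in Angptl4+/+ and 45.0 CPM in Angptl4-/- wounds at 1 dpw, and 36.4 and 52.9 CPM at 5 dpw, which gave log2 ratios of 0.40 (0.25 to 0.55) and 0.54 (0.34 to 0.74). In macrophage-like cells the log2 ratios were 0.49 (0.30 to 0.68) and 0.44 (0.24 to 0.63). Over neutrophil-, macrophage-, monocyte- and dendritic cell-like cells and both days, Il18 was higher in the Angptl4-/- library in 7 of 7 pairs compared and beyond counting error in 5; these pairs come from 2 pairs of libraries and are not independent. Dendritic cell-like cells at 1 dpw, with 24 against 22 UMIs, were under the minimum. Casp1, which acts on its product, was higher in the macrophage-like cells of Angptl4-/- wounds, at 0.26 (0.03 to 0.50) and 0.34 (0.15 to 0.52), while in neutrophil-like cells it gave -0.00024 (-0.24 to 0.24) and -0.43 (-0.76 to -0.11). The 2 macrophage-like clusters gave 0.15 and 0.23 for Casp1 at 1 dpw, beyond counting error in 0. At 5 dpw they gave 0.09 and 0.44, beyond it in 1. The count of pairs was made for each of the 8 genes, and Il18 had the most uniform direction. Il1r2 was lower in 7 of 8 pairs, beyond counting error in 6, and higher beyond it in 1. Each of the other genes had pairs in both directions. The share of all genes with a direction as uniform as that of Il18 was not measured.

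**Figure D4:**
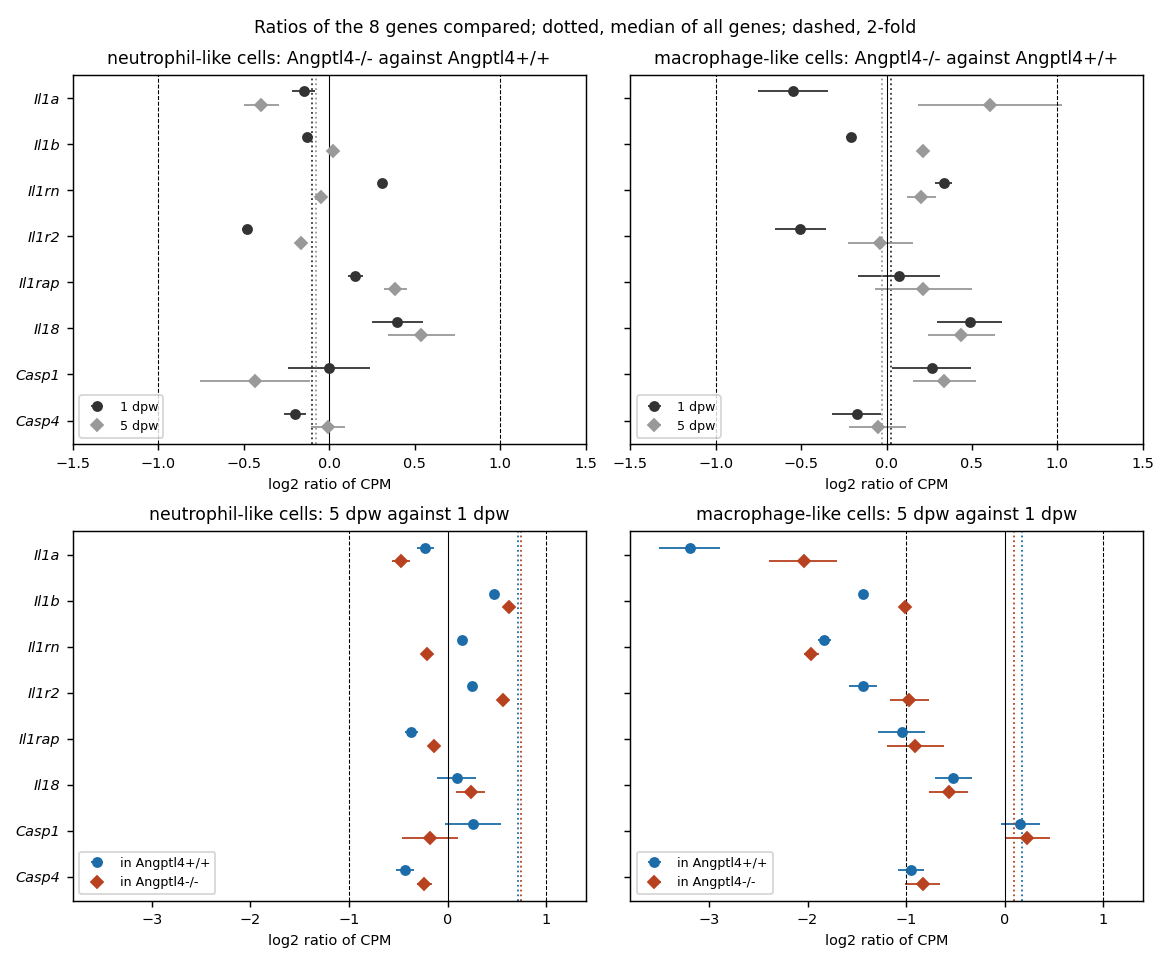
Log2 ratios of CPM with exact 95% intervals for the 8 genes compared, between genotypes (top, 1 and 5 dpw) and between days (bottom, in each genotype), in neutrophil-like (left) and macrophage-like cells (right); dashed lines mark 2-fold and dotted lines the median of all genes compared. No gene passes 2-fold between genotypes in these classes, whereas in macrophage-like cells Il1a, Il1rn and Il1b pass it between days in both genotypes.

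Between 1 and 5 dpw, the neutrophil-like cells kept these genes within 2-fold. In Angptl4+/+ wounds 0 of 8 were called where 36.5% of all genes compared were, and in Angptl4-/- wounds 0 of 8 where 39.1% were. That background was one-sided. The median log2 ratio of all genes compared was 0.72 and 0.75, and the summed level of the 14 neutrophil markers was lower at 5 dpw. It was 212649 CPM on day 1 against 114812 CPM in Angptl4+/+ wounds, and 229786 CPM against 116423 CPM in the Angptl4-/- ones; the part of this in the ratios was not tested. Directions between days in neutrophil-like cells therefore depend on the scale. Il1b was higher at 5 dpw on the CPM scale, with log2 ratios of 0.47 (0.46 to 0.48) and 0.62 (0.61 to 0.63), and in all 6 clusters of the integrated libraries. Relative to the median gene it was lower, at -0.25 and -0.12. Per cell, Il1b gave -0.19 and 0.12, so its direction in Angptl4+/+ wounds turned on that scale too. Il1r2 behaved alike, with 0.25 (0.22 to 0.28) and 0.57 (0.53 to 0.60) on the CPM scale and -0.47 and -0.18 relative to the median, and -0.41 and 0.07 per cell. In CPM, Il1rn was higher at 5 dpw in Angptl4+/+ and lower in Angptl4-/- wounds, while per cell it was lower in both, at -0.51 and -0.71. Il1a was lower on both scales, at -0.22 (-0.31 to -0.14) and -0.47 (-0.56 to -0.38) in CPM and -0.94 and -1.22 relative to the median. Casp4 was likewise lower on both scales, at -0.43 (-0.52 to -0.34) and -0.23 (-0.31 to -0.16) in CPM, and so was Il1rap, at -0.37 (-0.43 to -0.30) and -0.13 (-0.18 to -0.08). In Angptl4+/+ wounds Il1rap was lower beyond counting error in 5 of 6 clusters and Casp4 in 4. The Angptl4-/- clusters were less uniform in CPM. There Il1rap was higher in 2 of 6 and lower beyond counting error in 1, and Casp4 was higher beyond it in 1 and lower beyond it in 2. Relative to the median, 2 genes passed 2-fold in Angptl4+/+ wounds, Il1rap at -1.08 and Casp4 at -1.15, and 1 in Angptl4-/- wounds, Il1a.

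In macrophage-like cells the IL-1 genes compared, apart from Casp1, were lower in CPM at 5 dpw than at 1 dpw. In Angptl4+/+ wounds 5 of the 8 genes compared were at least 2-fold lower and 0 higher, where 4.57% of all genes compared were lower and 8.38% higher (13.0% in either direction). The log2 ratios were -3.19 (-3.51 to -2.89) for Il1a, -1.83 (-1.89 to -1.77) for Il1rn and -1.44 (-1.46 to -1.41) for Il1b. Those of Il1r2 and Il1rap were -1.44 (-1.58 to -1.30) and -1.05 (-1.29 to -0.81). In Angptl4-/- wounds 3 of 8 were lower and 0 higher, where 3.83% of all genes compared were lower (9.71% in either direction): Il1a at -2.04 (-2.39 to -1.70), Il1rn at -1.96 (-2.04 to -1.89) and Il1b at -1.01 (-1.05 to -0.98). Il1r2 and Il1rap fell just short of 2-fold there, at -0.97 (-1.16 to -0.77) and -0.91 (-1.19 to -0.62). Casp4 stayed inside 2-fold in both genotypes, at -0.95 (-1.09 to -0.82) and -0.83 (-1.01 to -0.66), and so did Il18, at -0.52 (-0.71 to -0.34) and -0.57 (-0.77 to -0.37). Casp1 was the exception to the direction, at 0.16 (-0.04 to 0.35) and 0.23 (0.01 to 0.45). Per cell the picture was different in Angptl4-/- wounds, for Il1b among others. Macrophage-like cells were deeper at 5 dpw, with medians of 6838 and 8350 UMIs per cell on days 1 and 5 in Angptl4+/+ wounds, against 5894 and 11590.5 in the Angptl4-/- ones. Il1b went from a mean of 24.7 to 9.93 UMIs per cell in the former and from 18.9 to 16.4 in the latter, log2 ratios of -1.31 and -0.20, so its 2-fold difference in Angptl4-/- wounds was one of CPM only. Il1a and Il1rn stayed past 2-fold per cell in both genotypes, at -3.07 and -1.23 for Il1a and at -1.71 and -1.15 for Il1rn. In Angptl4+/+ wounds Il1r2 was at -1.31 per cell and Il1rap, at -0.93, fell short of 2-fold. Casp4, Il18 and Casp1 were at -0.83, -0.40 and 0.28 there. In Angptl4-/- wounds Il1r2, Il1rap and Casp4 were at -0.16, -0.10 and -0.02 per cell. Il18 turned to 0.24 in these wounds, and Casp1 was past 2-fold higher per cell, at 1.04. This scale was added after seeing the data, and the part of cell content, capture or class make-up in it was not tested. The finer clustering held a shallow macrophage-like cluster led by Tppp3 and Ccl24, with a median of 1561 UMIs. It had 191 and 189 cells on days 1 and 5 in Angptl4+/+ wounds, and 155 and 34 in Angptl4-/- wounds. In CPM, the median log2 ratio of the 8 genes was -1.24 and -0.94, beside 0.17 and 0.09 over all genes compared.

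Neutrophil RNA in macrophage-like cells moved in the same direction. The 14 neutrophil markers, none at 0, summed to 14435 CPM at 1 dpw and 2456 CPM at 5 dpw in Angptl4+/+ wounds and to 13081 and 2699.5 CPM in Angptl4-/- wounds. To set the IL-1 genes against it, each level in macrophage-like cells was expressed as a percentage of that in neutrophil-like cells of the same library, beside 7 neutrophil genes (S100a8, S100a9, Retnlg, Mmp9, Csf3r, Cxcr2 and Hdc). The 7 genes had medians of 6.27, 2.11, 5.04 and 2.01% (Angptl4+/+ at 1 and 5 dpw, then Angptl4-/- at 1 and 5 dpw), and the highest of them, Csf3r, 10.7, 6.72, 12 and 5.90%. Il1rn stood above the highest of them in every library, at 62.4, 15.8, 63.5 and 18.8%, as did Il1b, at 28.3, 7.56, 26.8 and 8.65%, though by little at 5 dpw. Il1a was above them at 37.2% and 28.2% at 1 dpw, but at 5 dpw it was 4.75%, below the highest of the 7 genes, in Angptl4+/+ and 9.51% in Angptl4-/- wounds. Il1r2 was at 11.4, 3.53, 11.2 and 3.86%, above the median of the 7 genes in each library and above the highest in Angptl4+/+ wounds at 1 dpw. Il1rap was at 10.0, 6.23, 9.47 and 5.54%, between the median and the highest in each library. The part of neutrophil RNA in these levels was not tested. Of the Il1r2 UMIs in macrophage-like cells, 19.0 to 42.1% were in cells scored as doublets.

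After subtracting, from each member, its neutrophil level times the median percentage of the 7 genes (an alternative chosen after seeing the data), the log2 ratios of 5 against 1 dpw in Angptl4+/+ and Angptl4-/- wounds were -3.77 and -2.10 for Il1a, -1.89 and -2.01 for Il1rn, and -1.54 and -1.09 for Il1b. Il1r2 gave -1.59 and -1.17, and Il1rap -0.22 and -0.46. Of these 5 genes, Il1rap was the one with smaller ratios after the subtraction than before it. The subtraction takes 1 percentage for all genes of a library, while the 7 genes differed among themselves. Within the macrophage-like clusters Il1rn went from 890.3 to 271 CPM in cluster 3 and from 567 to 146 CPM in cluster 6 in Angptl4+/+ wounds, and from 1253 to 379 and from 643 to 128 CPM in Angptl4-/- wounds, so both clusters were lower at 5 dpw in each genotype.

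**Figure D5:**
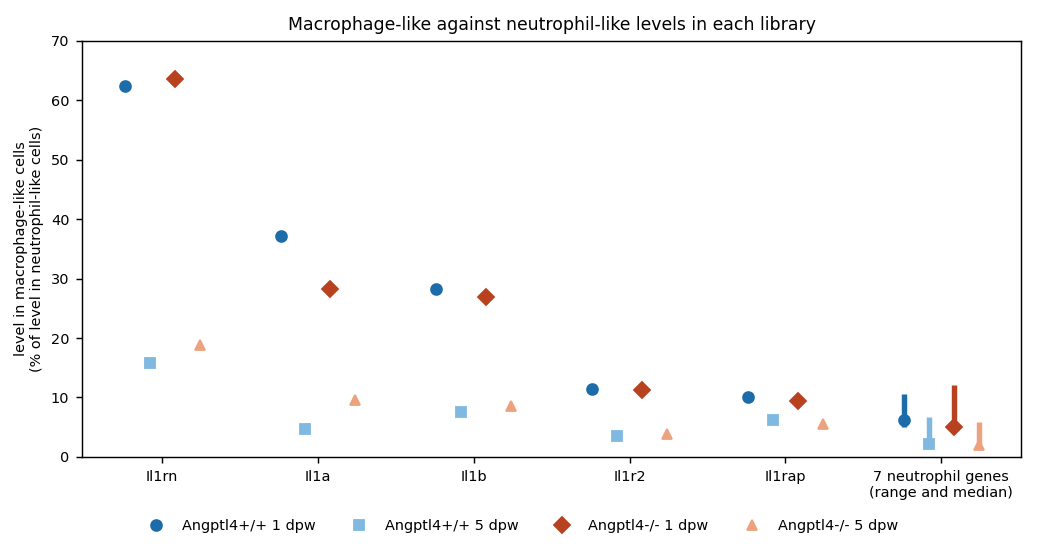
Level in macrophage-like cells as a percentage of the level in neutrophil-like cells of the same library (linear axis from 0) for 5 IL-1 genes, 1 point per library, beside the range (bar) and median (point) of 7 neutrophil genes. Il1rn and, at 1 dpw, Il1a and Il1b stand above the 7 genes, whereas Il1rap lies between their median and their highest and Il1r2 is above the highest in 1 of the 4 libraries.

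The dendritic cell-like class carried the decoy receptor above the level of the neutrophil genes. Il1r2 stood there at 488 CPM at 1 dpw and 196 CPM at 5 dpw in Angptl4+/+ wounds and at 193 and 256 CPM in Angptl4-/- wounds, which was 14.4 to 42.6% of the neutrophil level, while the highest of the 7 neutrophil genes was at 0.980 to 2.84%. The finer clustering placed it in 1 of 2 clusters. The cluster led by Siglech and Cd209a had 687 and 324 CPM on days 1 and 5 in Angptl4+/+ wounds, while the Angptl4-/- libraries had 285 and 361 CPM. The one led by Fscn1 and Ccl22, which mark mature dendritic cells, had 10.1 to 32.6 CPM. At 1 dpw Il1r2 was the 1 gene of 6 compared that differed 2-fold between genotypes, lower in Angptl4-/- wounds with a log2 ratio of -1.34 (-1.56 to -1.13), where 2.48% of all genes compared were called. It rested on 86 cells against 111, and 57.1% of the 226 UMIs in the Angptl4-/- library came from 5 cells. At 5 dpw the 1 gene of 7 was Il18, higher in Angptl4-/- wounds at 1.07 (0.53 to 1.63) with 74 against 48 UMIs, where 2.37% were called.

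From 1 to 5 dpw, 4 of 7 genes compared were at least 2-fold lower in the dendritic cell-like cells of Angptl4+/+ wounds, where 5.31% of all genes compared were lower (7.61% in either direction). They were Casp4 at -1.65 (-2.0 to -1.29), Il1rn at -1.61 (-1.85 to -1.37), Il1r2 at -1.32 (-1.46 to -1.17) and Il1b at -1.12 (-1.19 to -1.05). In Angptl4-/- wounds 2 of 7 were lower, Il1rn at -2.33 (-2.61 to -2.05) and Casp4 at -1.41 (-1.80 to -1.02), where 3.36% were (5.29% in either direction). Il1r2 there was at 0.41 (0.20 to 0.63) and Il1b at -0.51 (-0.59 to -0.43). Il1rn and Casp4 were thus the genes called in both genotypes.

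In monocyte-like cells Il1b was again the most abundant gene of the set, and Casp1 stood at 444 to 707% of its neutrophil level, Il18 at 92.8 to 138% and Casp4 at 51.1 to 60.5%. Il1b stood at 1295 CPM at 1 dpw and 1912 CPM at 5 dpw in Angptl4+/+ wounds and at 1633 and 1342 CPM in Angptl4-/- wounds, which was 8.53 to 16% of the neutrophil level beside medians of 5.12 to 11.1% for the 7 neutrophil genes and 14.7 to 22.1% for the highest of them. Il1b was above the median in all 4 libraries and above the highest, which was Csf3r in each, in none. Whether the Csf3r RNA of monocyte-like cells came from neutrophils was not tested. The part of neutrophil RNA in the Il1b level was not tested either. Cells scored as doublets held 28.4, 20.8, 24.8 and 35.2% of the Il1b UMIs of monocyte-like cells (Angptl4+/+ at 1 and 5 dpw, then Angptl4-/- at 1 and 5 dpw). Il1a was the 1 gene of 8 past 2-fold between genotypes at 1 dpw, higher in Angptl4-/- wounds at 2.74 (1.64 to 4.04), where 1.11% of all genes compared were called. It also was the 1 gene of 8 called between days in Angptl4-/- wounds, lower at 5 dpw at -1.05 (-1.98 to -0.19), where 4.21% were. These calls rested on 43, 8 and 16 Il1a UMIs, and 72.1% of the 43 UMIs were in cells scored as doublets. When the libraries were clustered without integration, the log2 ratio between genotypes at 1 dpw was -0.00890. Between genotypes at 5 dpw 0 of 7 genes were called (all genes, 1.29%), and between days in Angptl4+/+ wounds 0 of 7 (5.31%).

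The wider pathway was read from a list of ligands and receptors of the family, signaling proteins, inflammasome components and response genes, of which 55 symbols were in the tables. Between genotypes 0 of 40 compared list genes at 1 dpw and 0 of 43 at 5 dpw differed 2-fold in neutrophil-like cells (all genes compared, 1.8 and 1.87%). In macrophage-like cells 1 of 43 did at 1 dpw and 0 of 46 at 5 dpw (all genes, 1.34 and 1.81%), the 1 being Il6, an inflammatory cytokine, lower in Angptl4-/- wounds at a log2 ratio of -1.54 with 11 against 49 UMIs. Between days in macrophage-like cells, 10 of 46 were lower and 3 higher in Angptl4+/+ wounds, where 4.57% of all genes compared were lower and 8.38% higher, and 7 of 45 were lower and 2 higher in Angptl4-/- wounds, where 3.83% were lower and 5.87% higher. Of the 10 response genes, which IL-1 signaling is known to induce, 8 were lower and 1 higher in Angptl4+/+ wounds, against the same background. The summed neutrophil markers in these cells were lower at 5 dpw as well, and their part in these counts was not tested. In the Angptl4+/+ libraries, Cxcl2 in macrophage-like cells was 29.4% of its neutrophil level on day 1 and 6.57% on day 5, and Csf3 was at 14.6 and 1.17%, the latter under the median of the 7 neutrophil genes at 5 dpw. With neutrophil RNA subtracted, the counts were 8 lower and 1 higher in Angptl4+/+ and 5 and 1 in Angptl4-/- wounds, with Csf3 at 5 dpw in Angptl4+/+ wounds set to the floor of 3 UMIs. The largest ratios of the whole list were those of Csf3 (-4.20), a neutrophil growth factor, the neutrophil attractants Cxcl1 (-2.62) and Cxcl2 (-2.42), and Il1rl1 (2.82), the receptor of IL-33. In Angptl4-/- wounds the response genes counted 5 lower and 1 higher, among them Csf3 (-2.55) and Cxcl1 (-2.31) and, as the higher one, Il6 (2.24). Csf3 rested on 7 to 88 UMIs per library.

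In neutrophil-like cells the list followed the background of the day comparison: 13 of 42 compared genes were higher and 0 lower in Angptl4+/+ wounds, where 34.6% of all genes compared were higher, and 11 higher and 1 lower in Angptl4-/- wounds, where 37.3% were. The largest ratios were those of Nlrp1b (3.12) and Ccl2 (2.91) in Angptl4+/+ and of Ccl2 (3.12) and S100a10 (2.20) in Angptl4-/- wounds. By level, the highest list genes were Cxcl2 (28419 to 33888 CPM), the inhibitor gene Nfkbia (2488 to 3202 CPM) and Ptgs2 (889 to 2598 CPM) in neutrophil-like cells, and Cxcl2 (1866 to 9964 CPM), S100a10 (1149.6 to 1842 CPM) and Nfkbia (546 to 1460.0 CPM) in macrophage-like cells.

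The inflammasome parts that meet at Casp1 had unlike distributions; the genes named in this paragraph were chosen after their values were seen. The sensor Nlrp3 stood at 1039.5 to 1208 CPM in neutrophil-like and 94.3 to 348 CPM in macrophage-like cells. The adaptor Pycard, which links sensor and caspase, stood at 26.6 to 44.5 CPM and 185 to 277 CPM, so that Pycard and Casp1 were lower, and Nlrp3 and Il1b higher, in neutrophil-like than in macrophage-like cells. Among the family's other members, Il1f9 (IL-36 gamma) was at 399 to 532 CPM in neutrophil-like cells, and Il18rap, a chain of the IL-18 receptor, at 192 to 245 CPM in neutrophil-like and 128 to 190.4 CPM in NK cell/T cell-like cells. Il18r1, the other chain, was at 169 to 212 CPM in NK cell/T cell-like cells and 8.13 to 13.6 CPM in neutrophil-like cells.

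Across 42 sums of a cluster in a library, each of at least 50 cells, the genes most like each member by Pearson's r of log2(CPM + 1) were found among 11501 genes. Sums of 1 library share depth and free RNA, so r is a description. Il1b was most like March7 (0.97), Cfap43 (0.97) and the survival gene Mcl1 (0.97), and Il1rap was most like Map1lc3b (0.98), Igf1r (0.98) and the histamine-synthesis gene Hdc (0.98). Il1a was most like Noct (0.94), Atp6v1e1 (0.94) and Il1rn itself (0.94). Il1rn shared Atp6v1e1 (0.95) and Npepps (0.95) with it. Il1r2 was most like S100a11 (0.95) and March7 (0.94), and Casp4 was most like Nlrp3 (0.88) and Acod1 (0.88). The gene most like Il18 was Lyn (0.81), that most like Casp1 was Dcaf11 (0.90), and that most like Il1r1, which is sparse, was Slamf6 (0.86). Between members, r was 0.95 for Il1b and Il1rap, 0.91 for Il1b and Il1r2, and 0.56 for Il1rn and Il1r2.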

How the data were processed

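Raw UMI counts per gene and cell were deposited by the authors, who made them with Cell Ranger 3.1.0 on the mm10 build and analysed them with Seurat 3.0, as the submitters' processing notes and the study's methods name them. Each of the 4 libraries (1 per genotype and day) was grouped by its labels. Cells with at least 200 genes and at most 10% mitochondrial UMIs were kept. Libraries were integrated and clustered (Seurat 5.3.0 in R 4.3.3; 2000 variable genes, 30 dimensions, resolution 0.5), leaving 69 symbols of the set and the wider lists out of the variable genes, and clusters were named from marker lists. Scrublet's own threshold called 0 to 3 doublets per library, so the 4% with the highest scores per library (190 to 214 cells) were taken as doublets; they were kept, and removed as an alternative. Counts were summed per class and library and divided by the class total. Intervals are exact (Poisson for levels, Clopper-Pearson for shares, conditional binomial for ratios) and cover counting error only, and with 1 library per condition no test was made. A count of 0 was given a floor of 3 UMIs per library and class.

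The genes named are the 9 of the set, up to 4 pathway genes per class and comparison with the largest ratio past 2-fold, up to 3 of the highest level per class, and for each gene of the set up to 5 genes most like it. The set and the lists were chosen with earlier results of these data known. On Poisson counts simulated for the macrophage-like cells of the Angptl4+/+ libraries, 95.5% of intervals held the true ratio over 9865 genes, and 0.0931% of unchanged genes passed 2-fold. The simulation held counting error only, as the intervals assume, without spread between cells or libraries. It therefore checks the calculation and not the real spread. Alternatives were a stricter cell filter (at least 500 genes, at most 5% mitochondrial UMIs), no integration, resolution 1.0, doublets removed, cells thinned to 1000 UMIs, centred ratios, a minimum of 10 UMIs and equal weight per cluster; subtraction of neutrophil RNA and mean UMIs per cell in place of CPM were added after seeing the data. Python 3.11.15 with numpy 2.4.6, scipy 1.17.1, pandas 2.3.3, scanpy 1.11.5 and matplotlib 3.10.9 was used.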

Additional observations from a re-analysis of the deposited data

Results flagged for a closer look

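Il1a in macrophage-like cells had opposite directions between genotypes on the 2 days. The log2 ratio of Angptl4-/- to Angptl4+/+ wounds was -0.55 at 1 dpw and 0.61 at 5 dpw. These values rested on 288 against 646 UMIs at 1 dpw and on 93 against 103 at 5 dpw. Of the 93 UMIs, 41.9% came from 5 cells. The size depended on the scale: per cell the ratios were -0.73 and 1.11, and with neutrophil RNA subtracted -0.56 and 1.11. The difference between the days was not tested, since there was 1 library per genotype and day.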

How the results depend on the processing

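Of the 18 values of the set that passed 2-fold, 18 kept their call and direction under the stricter cell filter, resolution 1.0, centring and the minimum of 10 UMIs, 17 with clusters weighted equally, 16 without doublets, 16 as mean UMIs per cell, 15 without integration and 10 after thinning, where 6 fell under the minimum of 50 UMIs. One direction turned: Il1a between genotypes in monocyte-like cells at 1 dpw was at -0.00890 without integration. Of 156 counts of genes past 2-fold, 134 stayed within 1.5 times and 22 moved. Centring gave 2 genes in neutrophil-like cells between days in Angptl4+/+ and 1 in Angptl4-/- wounds, in place of 0, and UMIs per cell 2 in Angptl4+/+ wounds, Il1rap at -1.03 and Casp4 at -1.09. In monocyte-like cells, between genotypes at 1 dpw, no integration and thinning each gave 0 and subtraction of neutrophil RNA 2, in place of 1. At 5 dpw, removing doublets and subtraction each gave 2, in place of 0. Between days in Angptl4+/+ wounds the minimum of 10 UMIs and UMIs per cell each gave 1 and subtraction 4, in place of 0, and in Angptl4-/- wounds no integration, removing doublets and thinning each gave 0 and subtraction 3, in place of 1. Subtraction set Il1rn and Il1r2 in Angptl4+/+ and Il1r2 in Angptl4-/- monocyte-like cells at 5 dpw to the floor of 3 UMIs. It did the same to Il1a in Angptl4+/+ monocyte-like cells at 1 dpw, so calls that use these values rest on the floor. In macrophage-like cells at 5 dpw, subtraction and UMIs per cell each gave 1 between genotypes, Il1a at 1.11, in place of 0. Per cell, the calls lost were those of Il1rap in Angptl4+/+ and Il1b in Angptl4-/- wounds between days in macrophage-like cells, at -0.93 and -0.20. Casp1 in Angptl4-/- wounds passed 2-fold in that comparison only per cell, higher at 5 dpw, at 1.04. In dendritic cell-like cells, between genotypes, thinning and the minimum of 10 UMIs each gave 2 at 1 dpw, in place of 1, and thinning 0 at 5 dpw, in place of 1. Between days, thinning gave 2 in Angptl4+/+ wounds, in place of 4, and 1 in Angptl4-/- wounds, in place of 2. Beyond the fewer UMIs that thinning leaves and the more genes that a lower minimum admits, the cause was not tested. No paired analysis was possible because each group held 1 library and the labels give no shared replicate numbers.

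The depth of the small classes limits what was detectable: Il1r1 did not reach 50 UMIs over both libraries of a comparison in any class, and in monocyte- and dendritic cell-like cells several calls rest on a few cells. The spread between libraries of 1 condition was not measured, so a ratio beyond counting error is not shown to exceed it.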
